A study of Mus musculus with 3 samples.

Results

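Of the 10069 NR2F2 peaks called in the fetal testis, 1129 lay inside a gene at more than 10 kb and at most 100 kb from the nearest transcription start site (TSS), and these intragenic distal peaks are described here. A peak was counted as intragenic when its midpoint fell within a curated RefSeq transcript, and the distance was taken from the nearer edge of the peak to the closest curated TSS of any gene on mm10. Neither criterion uses read counts. Chromatin immunoprecipitation with sequencing (ChIP-seq) was performed on whole testes of E14.5 embryos of CD-1 mice, an outbred stock, with an antibody against COUP-TFII, another name of NR2F2. The data hold 2 NR2F2 ChIP libraries from independent experiments on chromatin of 30 pooled testes and 1 input library of chromatin without immunoprecipitation. No library came from testes that lack NR2F2, and neither RNA nor the cell type of origin was measured. The input library held 73251 reads over all peaks, ChIP replicate 1 held 426784 and ChIP replicate 2 held 364261, of which 8276, 42455 and 37803 fell in the intragenic distal peaks. Since every value rests on 1 input library and 2 ChIP libraries, errors given as SD cover the spread between the ChIP libraries, and counting intervals cover counting error only. Errors given as SE came from the edgeR model, fitted to all peaks with a shared estimate of variation. They are not the spread between the ChIP libraries at a peak.

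NR2F2 is an orphan nuclear receptor that binds DNA at the half-site AGGTCA, most often at pairs of half-sites arranged as direct repeats. In the fetal testis it is known from the non-steroidogenic interstitial cells, which include progenitors of fetal Leydig cells and contractile cells around the cords, and it is not found in Sertoli cells. Introns of long developmental genes commonly hold enhancers, which are short stretches that transcription factors occupy far from a promoter.

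The sequences are shown first of the 3 intragenic peaks that combined 5 or more half-sites with more ChIP reads than the typical peak, because each holds a tandem array. All are 300 bases of mm10 on the plus strand, and capitals mark AGGTCA or GGGTCA and their reverse complements TGACCT and TGACCC. The Slit3 peak at chr11:35697844-35698143 lay in intron 32 of 35 of Slit3, which encodes a secreted ligand of Robo receptors. The Capn2 peak at chr1:182500955-182501254 lay in intron 2 of 20 of Capn2, the catalytic subunit of a calcium-dependent protease. The Pigk peak at chr3:152733573-152733872 lay in intron 3 of 11 of Pigk, a subunit of the enzyme that attaches proteins to GPI anchors. The peaks were chosen for display after their values were seen.
Slit3: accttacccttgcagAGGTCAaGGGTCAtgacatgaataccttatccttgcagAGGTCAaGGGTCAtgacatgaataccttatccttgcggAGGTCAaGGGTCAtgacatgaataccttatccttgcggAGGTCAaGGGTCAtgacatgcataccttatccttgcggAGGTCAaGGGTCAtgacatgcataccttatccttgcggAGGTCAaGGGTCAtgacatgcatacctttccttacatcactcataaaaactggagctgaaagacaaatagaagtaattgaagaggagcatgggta
Capn2: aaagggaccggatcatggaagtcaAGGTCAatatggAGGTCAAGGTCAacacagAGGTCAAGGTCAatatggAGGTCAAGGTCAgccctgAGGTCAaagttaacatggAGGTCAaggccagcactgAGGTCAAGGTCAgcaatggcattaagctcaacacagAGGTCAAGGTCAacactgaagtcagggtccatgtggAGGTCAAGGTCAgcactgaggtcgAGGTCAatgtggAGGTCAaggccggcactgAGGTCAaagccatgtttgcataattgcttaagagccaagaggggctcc
Pigk: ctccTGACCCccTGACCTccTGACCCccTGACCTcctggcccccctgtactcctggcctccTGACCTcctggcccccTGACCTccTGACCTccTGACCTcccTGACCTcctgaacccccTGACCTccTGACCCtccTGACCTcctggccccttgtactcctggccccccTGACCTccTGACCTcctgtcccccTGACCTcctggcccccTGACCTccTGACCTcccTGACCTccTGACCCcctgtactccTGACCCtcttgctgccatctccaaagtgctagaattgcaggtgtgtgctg

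The Slit3 peak held 12 half-sites in 6 pairs with 1 base between them, and the sequence matched itself at 80.2% of positions when shifted by 38 bp. The Capn2 peak held 18 half-sites, 6 of the pairs directly abutting, with 67.4% identity at a shift of 36 bp. The Pigk peak held 20 half-sites on the minus strand and its best shift was 8 bp, at 65.4% identity. Soft-masked repeat sequence made up 0% of the first 2 of these peaks and 7% of the Pigk peak.

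Strongly occupied intragenic peaks were not all arrays. The Adcy7 peak at chr8:88316157-88316456, in intron 12 of 27 of an adenylyl cyclase gene, held 1 half-site and 1 E-box CAGCTG, a site bound by basic helix-loop-helix factors. The Bahcc1 peak at chr11:120261935-120262234, in intron 3 of 27 of a gene for a chromatin-associated protein, held 2 E-boxes and no half-site. They are shown to set peaks without an array beside the arrays, 300 bases of mm10 on the plus strand with half-sites and E-boxes CAGCTG in capitals.
Adcy7: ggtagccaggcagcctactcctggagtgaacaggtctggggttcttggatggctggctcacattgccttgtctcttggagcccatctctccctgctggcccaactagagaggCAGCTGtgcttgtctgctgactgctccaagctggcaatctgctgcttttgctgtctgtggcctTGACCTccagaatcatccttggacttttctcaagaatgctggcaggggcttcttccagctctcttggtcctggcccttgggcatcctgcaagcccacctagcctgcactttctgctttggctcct
Bahcc1: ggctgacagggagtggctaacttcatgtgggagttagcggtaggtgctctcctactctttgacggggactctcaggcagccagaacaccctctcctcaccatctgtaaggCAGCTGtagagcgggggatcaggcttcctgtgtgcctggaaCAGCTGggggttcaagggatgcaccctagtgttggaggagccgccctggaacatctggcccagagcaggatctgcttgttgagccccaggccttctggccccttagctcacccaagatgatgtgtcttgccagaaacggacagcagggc

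The intragenic distal peaks held several times more ChIP than input reads, at a ratio close to that of intergenic peaks at the same distance. The ratios are of counts as deposited, and as the depths of the libraries are not given in the sources used here, their absolute size cannot be read as a degree of enrichment. Over the 1129 peaks, input counts ranged from 0 to 20 with a median of 7, ChIP replicate 1 from 6 to 252 with a median of 32, and ChIP replicate 2 from 9 to 249 with a median of 29. In 1128 of the 1129 peaks both ChIP libraries held more reads than the input. With 0.5 added to each count, the median ratio to input stood at 4.48 for replicate 1 and at 4.08 for replicate 2, which average 4.28 ± 0.286 (SD, n = 2). The same average was 4.36 ± 0.311 (SD, n = 2) at the 1384 intergenic peaks 10 to 100 kb from a TSS, 4.67 ± 0.471 at the 915 peaks 1 to 10 kb from a TSS and 5.00 ± 0.808 at the 2440 peaks that overlap a TSS.

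The intragenic distal peaks were below each of these classes in both ChIP libraries. On the log2 scale the median ratio differed from intergenic distal peaks by −0.03 ± 0.01 (SD, n = 2), from peaks 1 to 10 kb away by −0.12 ± 0.05 and from TSS peaks by −0.22 ± 0.14. Among peaks with a GC content of 50 to 60%, the difference from TSS peaks was −0.14 ± 0.02 (SD, n = 2). These differences were not tested, since an exact two-sided sign-flip permutation test over 2 ChIP libraries cannot go below p = 0.5, and both libraries share 1 input. The libraries were not equally represented across classes, as replicate 2 held 47.1% of the ChIP reads at the intragenic distal peaks and 44.5% at TSS peaks. The replicates ranked the intragenic peaks alike, with a Spearman correlation of 0.812 across 1129 peaks of the same 2 libraries, which are not independent replicates.

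**Figure D1:**
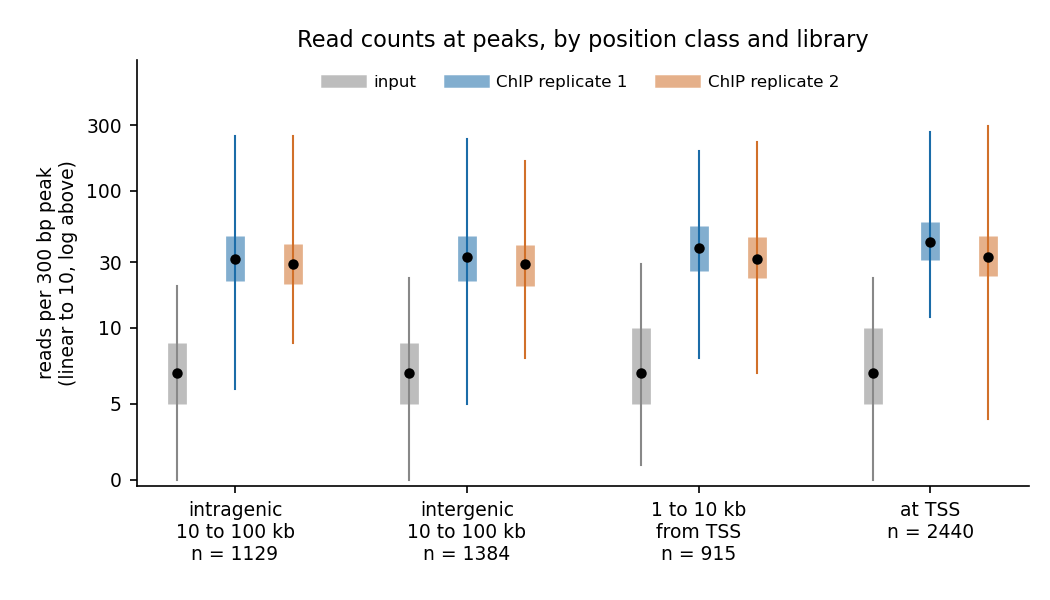
Reads per 300 bp peak in the input and the 2 NR2F2 ChIP libraries, for 4 classes of peaks by position. Dots are medians, boxes span the quartiles and lines the lowest to the highest count. At the 1129 intragenic peaks the medians were 7, 32 and 29, against 7, 42 and 33 at TSS peaks.

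Most of these peaks exceeded the input, and 13 exceeded the typical NR2F2 peak. If all libraries were sequenced to the same depth, edgeR (quasi-likelihood, Benjamini-Hochberg adjustment over all peaks) placed 879 of 1129 intragenic distal peaks above input (77.9%), beside 80.7% of all peaks. The peaks had been called on the merged ChIP reads, so this count is not independent evidence of occupancy, and the sequencing depths are not given in the sources used here. Taking the ChIP libraries as 2 times deeper than the input left 0 above input in edgeR at the adjusted threshold and 358 at an unadjusted p under 0.05, whereas taking them as 2 times shallower gave 1103. With DESeq2 at equal depth the count was 554.

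To rank peaks without assuming a depth, ChIP was set against input after TMM scaling on the counts at peaks, so that the typical peak has a log2 ratio near 0. By edgeR's quasi-likelihood test 13 of 1129 intragenic distal peaks were above the typical peak (1.15%), beside 1.53% of all peaks. None was below it, beside 0.0497% of all peaks, and 0 were below in DESeq2 at the adjusted threshold. At an unadjusted p under 0.05, 47 were below (4.16%, against 2.55% of all peaks) and 63 above (5.58%, against 7.89% of all peaks). The median log2 ratio of the intragenic distal peaks was −0.13, against 0.02 over all peaks. The 13 calls depended on the settings of the fit: 5 were made without TMM factors, 3 with DESeq2 size factors in edgeR and 1 with DESeq2, which gave no adjusted p to 1064 of the 1129 peaks. With DESeq2 size factors the median log2 ratio went from −0.13 to −0.16. That fit also shared its estimate of variation less across peaks, and DESeq2 is another model. Which of these changes cost the calls was not tested.

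Capn2 carried the strongest intragenic distal peak by ChIP count. It had 252 and 249 reads in the 2 ChIP libraries and 18 in the input, a log2 ratio of 1.48 ± 0.28 (SE) over the typical peak (adjusted p = 0.000128, edgeR). Slit3 had 145 and 168 ChIP reads over 1 input read and a log2 ratio of 4.93 ± 0.67 (adjusted p = 1.25e-09, edgeR). Both ChIP libraries stood far above the input at these peaks, and the call at Slit3 held without TMM factors, with DESeq2 size factors, in DESeq2 and in a robust fit, whereas that at Capn2 was lost in DESeq2 (adjusted p = 0.111). Because the input count at Slit3 was 1, the raw ratio in replicate 1 was 145 with a 95% counting interval of 25.6 to 5766.

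Pigk, with the most half-sites of any intragenic peak, had 104 and 83 ChIP reads over 3 input reads (log2 ratio 2.63 ± 0.62 SE, adjusted p = 0.00330, edgeR). A start of a predicted transcript of RefSeq lay 311 bp from the Pigk peak, so it is distal only with respect to curated transcripts. Clip2, a microtubule-binding protein, carried an intron 1 peak with 119 and 102 reads over 3 (log2 ratio 2.87 ± 0.59, adjusted p = 0.000262, edgeR). Septin11, a cytoskeletal GTPase, had 67 and 61 reads over 2 input reads. Atoh8, a basic helix-loop-helix transcription factor, had 77 and 68 reads over 3 in its intron 2. Zdhhc17, a palmitoyltransferase, had 36 and 35 reads and no input read, which put it at least 12-fold and 11.7-fold above a floor of 3 input counts. In all, 6 of the 13 called peaks had 3 or fewer input reads, so their ratios are imprecise. Of the peaks in this paragraph, Clip2 kept its call with DESeq2 size factors, and Pigk, Clip2 and Zdhhc17 kept theirs without TMM factors, and none kept its call in DESeq2, which gave an adjusted p to Pigk (0.130) and Clip2 (0.0825) only.

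The other called peaks described here had moderate input and high ChIP counts in both libraries. Bahcc1 had 184 and 141 ChIP reads over 13 input reads (log2 ratio 1.32 ± 0.35 SE, adjusted p = 0.0171, edgeR). Adcy7 had 139 and 135 reads over 10 (log2 ratio 1.46 ± 0.40, adjusted p = 0.0218, edgeR). Maml3, a mastermind-like coactivator of Notch signalling, had 140 and 89 reads over 7 (log2 ratio 1.70 ± 0.46, adjusted p = 0.0218, edgeR). The Dennd2a peak also overlapped an exon of the non-coding 8030453O22Rik and had 136 and 97 reads over 8. The peak shared by Grk5 and Zfp950 had 97 and 109 reads over 6 and lay 643 bp from the start of a predicted transcript. The calls at Bahcc1, Adcy7, Maml3, Dennd2a and Zfp950 were lost with DESeq2 size factors, without TMM factors and in DESeq2. In each of these peaks the lower ChIP library held more than 10 times the input.

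**Figure D2:**
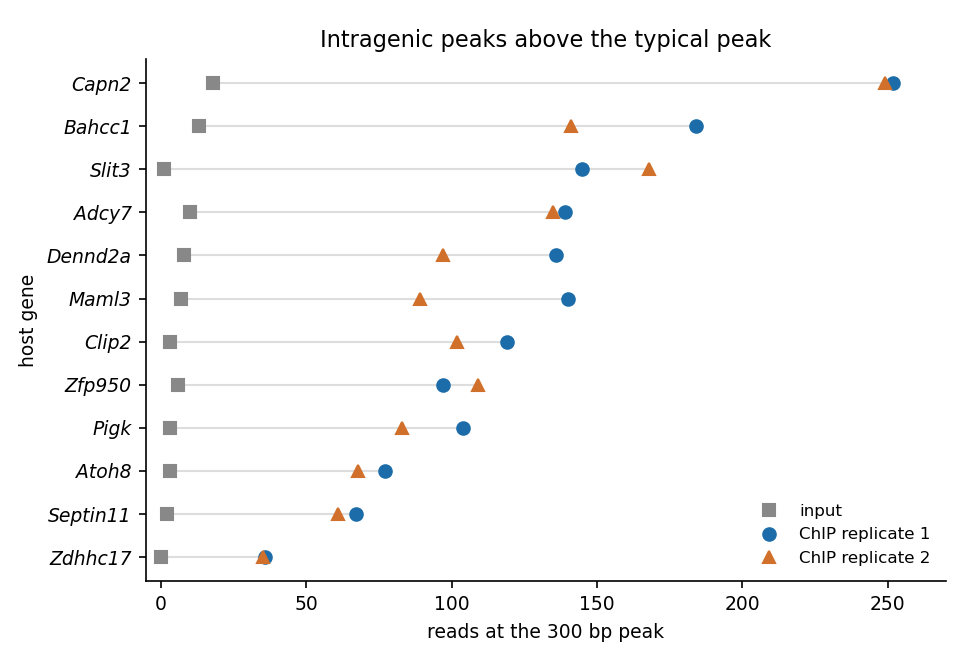
Reads in the input and the 2 ChIP libraries at 12 of the 13 intragenic peaks above the typical peak, ordered by mean ChIP count and named by host gene. Every ChIP point lies to the right of its input point, from 35 and 36 reads over 0 at Zdhhc17 to 249 and 252 over 18 at Capn2.

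Some peaks with high ChIP counts were not called. Pknox2, a TALE homeodomain factor, had 162 and 131 reads over 13 (log2 ratio 1.17 ± 0.36 SE, adjusted p = 0.0638, edgeR), and its peak was 212 bp from a predicted start. Myo5b, an unconventional myosin, had 150 and 130 reads over 13 (adjusted p = 0.0999, edgeR). Ttc21b, a subunit of the intraflagellar transport machinery, had 99 and 125 reads over 18 input reads and a log2 ratio of 0.33 ± 0.35 (adjusted p = 0.861, edgeR). With only the peaks of at least 10 input reads in the fit, Pknox2 (adjusted p = 0.00718, edgeR) and Myo5b (adjusted p = 0.0116, edgeR) passed the test. These peaks were among the 10 with the highest mean ChIP count.

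The ChIP replicates differed at 1 of the 1129 peaks (0.0886%), beside 0.0993% of all peaks, by an exact binomial test adjusted over all peaks, and at 110 (9.74%, against 8.83% of all peaks) at an unadjusted p under 0.05. The differing peak lay in intron 1 of Frmd6, an upstream component linked to Hippo signalling, with 10 reads in replicate 1 and 40 in replicate 2 over 7 input reads (exact binomial adjusted p = 0.00402). It held 2 DR1 pairs, defined below. This test compares 2 libraries and not conditions.

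By position, the intragenic distal peaks were mostly intronic and spread along their genes. Of the 1129 peaks, 1024 (90.7%) had their midpoint in an intron, 72 in coding exons, 21 in 3′ UTRs, 11 in non-coding exons and 1 in a 5′ UTR. Among the 1031 in an intron of the longest host transcript, 290 were in intron 1, 186 in intron 2, 116 in intron 3 and 439 further downstream. The median distance to a TSS was 30914 bp, and the median position was 54.6% of the way along the host transcript. The nearest TSS belonged to the host for 745 peaks and to another gene for 384.

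Introns made up slightly less of the peaks than of the sequence available. On a 1 kb grid of positions that meet the same rule, 94.2% of the 570 Mb of intragenic sequence was intronic and 2.94% was coding, against 90.7% and 6.38% of the peaks. That corresponds to 1.91 peaks per Mb in introns and 4.29 per Mb in coding exons. Coding exon peaks had a median GC content of 59.2% against 52.7% in introns, and their median ratio to input was 4.18 ± 0.639 against 4.25 ± 0.249 (SD, n = 2). The whole intragenic space held 1.98 peaks per Mb and the intergenic space at the same distance 2.12. Within genes the density was 2.14 per Mb at 10 to 20 kb, 1.94 at 20 to 50 kb and 1.89 at 50 to 100 kb from a TSS. Strength varied little with these positions, as the median log2 ratio to the typical peak was −0.12, −0.17 and −0.08 in the same 3 distance ranges.

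Just inside the lower limit, the Nynrin peak at 10017 bp had 45 and 36 ChIP reads over 8, and just outside it the Tmem108 peak at 9981 bp had 25 and 18 over 5. At the upper limit, the Ppp1r9a peak at 99987 bp had 21 and 19 reads over 7, and the Cubn peak at 100851 bp had 29 and 21 over 3. The annotation sets part of the membership. A start of any RefSeq transcript, predicted ones included, lay within 1 kb of 54 peaks and inside 21 of them, and a start of a GENCODE M21 transcript within 1 kb of 127 and inside 33. The 54 had a median ratio of 5.14 ± 0.972 (SD, n = 2) against 4.24 ± 0.266 for the other 1075.

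The DNA of these peaks carried far more half-sites than its surroundings. AGGTCA was present on either strand in 646 of 1129 peaks, 57.2% (Wilson 95% interval 54.3 to 60.1), and in 18.2% of 2258 windows of 300 bp placed 2 kb to either side. The share was 52.7% at intergenic distal peaks, 23.2% at TSS peaks and 37.7% of all peaks. Intragenic peaks had a median GC content of 53.0% against 45.5% in their flanks, and among windows of 50 to 60% GC the shares were 57.4% in peaks, 20.4% in flanks and 37.1% in TSS peaks. The longer forms AGAGGTCA and AGGGGTCA were together in 198 peaks (17.5%, interval 15.4 to 19.9) and in 2.61% of flanks. CAAGGTCA, the form that NR5A1 is known to bind and that contains the same half-site, was in 141 peaks (12.5%) and in 1.73% of flanks. Matches are descriptions of letters and not of occupied sites.

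Counting AGGTCA and GGGTCA together, 276 peaks had no half-site, 456 had 1, 233 had 2 and 164 had 3 or more, a mean of 1.42 per peak against 0.344 per flanking window. Of the 1054 AGGTCA matches, 52.6% lay within 50 bp of the peak centre, and 12.1 per 100 peaks fell in the central 20 bp against 1.55 per 100 flanking windows. AGGTCA read on the strand of the host gene in 441 matches and on the other strand in 613 (41.8% on the host strand, interval 38.9 to 44.8, matches taken as independent although arrays share a strand). Without the 35 peaks that hold 5 or more half-sites, the share was 45.2% (41.9 to 48.6).

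Pairs of half-sites were arranged as direct repeats far more often than as inverted or everted repeats. The most frequent spacing was 1 base, called DR1, in 53 peaks (4.69%, Wilson 95% interval 3.61 to 6.09) and in 2 of 2258 flanking windows. DR1 was in 4.26% of intergenic distal peaks and 1.02% of TSS peaks. Directly abutting half-sites were in 21 peaks and pairs 8 bases apart in 18, whereas the other direct repeats with up to 7 bases between them were in 8 to 12 peaks each. No inverted or everted spacing from 0 to 8 bases was in more than 5 peaks. Leaving out the 35 peaks with 5 or more half-sites kept DR1 in 45 of 1094 peaks.

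**Figure D3:**
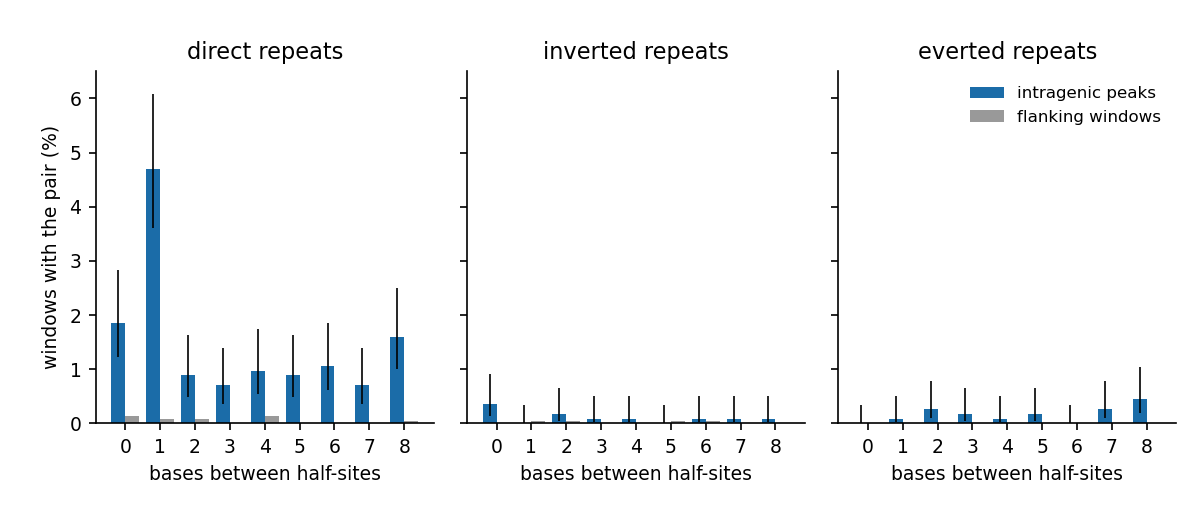
Share of the 1129 intragenic peaks and of 2258 flanking windows that hold a pair of half-sites, by arrangement and number of bases between the half-sites. Bars are percentages and lines on the peak bars are Wilson 95% intervals. The highest bar is the direct repeat with 1 base between half-sites, at 4.69%.

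DR1 sites at peaks with high ChIP counts show the arrangement in single copies. The windows of 29 bases of mm10 below are written 5′ to 3′ on the strand of the repeat, with both half-sites in capitals. Cdc42ep4, an effector of the GTPase CDC42, held its site in a 3′ UTR at chr11:113728410-113728438, plus strand. Sipa1l3 held one at chr7:29383371-29383399, plus strand, and Actn4, an actin crosslinker, at chr7:28918339-28918367, minus strand.
Cdc42ep4: acagagtaAGGTCAaAGGTCAtagagaag
Sipa1l3: ggagggaaGGGTCAcAGGTCAgctctaag
Actn4: gaagcacaAGGTCAaAGGTCAgccctagg

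None of these 3 peaks was called above the typical peak. Cdc42ep4 had 104 and 116 ChIP reads over 17 input reads (log2 ratio 0.38 ± 0.36 SE, adjusted p = 0.827, edgeR). Sipa1l3 had 87 and 61 reads over 11 and Actn4 had 64 and 75 over 6. Across the intragenic peaks, the 53 with DR1 had median ChIP counts of 29 and 31 and the others 32 and 29, with a median input of 7 in both.

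The E-box CAGCTG was also frequent, in fewer peaks than AGGTCA. It was in 536 of 1129 peaks, 47.5% with a Wilson 95% interval of 44.6 to 50.4, whereas the share was 14.4% in flanking windows, 43.1% in intergenic distal peaks and 17.5% in TSS peaks. Among windows of 50 to 60% GC it was in 50.6% of intragenic peaks, 19.1% of flanks and 18.1% of TSS peaks. Its matches were spread more broadly than those of AGGTCA, with 44.7% within 50 bp of the peak centre. The other 9 E-boxes of the form CANNTG were searched after this was seen. CAGATG was in 33.0% of peaks (30.3 to 35.7) and 23.6% of flanks, and CACGTG in 7.26% (5.89 to 8.93) and 4.52%. Among windows of 50 to 60% GC the shares were 35.2% and 24.9% for CAGATG and 7.03% and 6.49% for CACGTG, whose excess was then small. For 4 of the 9 the flank share lay inside the interval of the peaks and for 3 it lay above it.

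**Figure D4:**
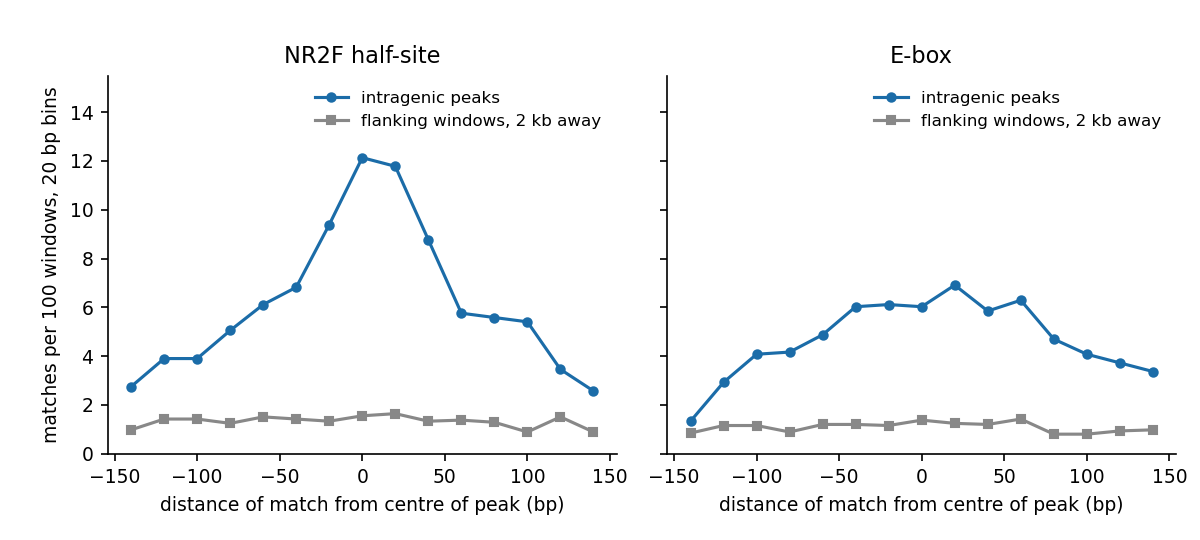
Matches of the NR2F half-site and of the E-box per 100 windows, in bins of 20 bp by distance from the peak centre, in the 1129 intragenic peaks and in flanking windows 2 kb away. The half-site reaches 12.1 per 100 peaks at the centre and the E-box 6.91 in the bin from 10 to 30 bp, while flanks stay below 2.

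E-boxes and half-sites were found together about as often as their separate shares give. CAGCTG was in 47.6% of intragenic peaks with a half-site (AGGTCA or GGGTCA) and in 47.1% of those without. Both were present in 406 peaks, a half-site only in 447, CAGCTG only in 130 and neither in 146. Median ChIP counts were 36 and 32.5 in the peaks with both and 27 and 22 in those with neither, with median inputs of 7 and 6 and GC contents of 53.7% and 53.3%. Of the 13 called peaks, 9 held a half-site, 10 held CAGCTG and all 13 held at least one of them. Over all intragenic distal peaks 75.6% held a half-site, 47.5% held CAGCTG and 12.9% held neither, and the difference was not tested.

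Peaks with more ChIP reads held these letters more often. With the intragenic peaks ordered by mean ChIP count in 4 groups of 282 or 283, the share with a half-site from the lowest to the highest group was 64.3%, 74.8%, 80.1% and 83.0%, and the share with CAGCTG was 35.7%, 48.6%, 50% and 55.7%. The median GC content over the same groups was 50.7%, 52.7%, 53.7% and 55.7%, and the median input 5, 6, 8 and 10, and their part in the shares was not tested. DR1 did not follow this order, with 12, 16, 7 and 18 peaks. Set against input, peaks with 0, 1, 2 and 3 or more half-sites had median ratios of 4.33, 4.53, 4.64 and 4.54 in replicate 1. In replicate 2 the ratios were 3.64, 4.12, 4.26 and 4.09. The median log2 ratio to the typical peak was −0.12 with AGGTCA and −0.15 without it, and −0.06 with CAGCTG and −0.23 without it.

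Other motifs differed less from the flanks, in percentage points, than AGGTCA and CAGCTG did. As a fold over the flanks some stood higher, with 3.95 for GGGCGG and 4.8 for GACCACCCA against 3.14 for AGGTCA and 3.30 for CAGCTG. The GC box GGGCGG of SP and KLF factors was in 12.8% of intragenic peaks, 3.23% of their flanks and 64.9% of TSS peaks, and the ETS site CCGGAAGT in 0.709% and 11.8%. In the 50 to 60% GC range GGGCGG was in 12.3% of intragenic peaks, 5.38% of flanks and 38.3% of TSS peaks. The AP-1 site TGACTCA was in 4.25% of intragenic peaks and 4.74% of their flanks. AGATAA, bound by GATA factors, was in 12.4% of peaks and 15.2% of flanks. Among windows of 50 to 60% GC the order turned for both, with TGACTCA in 4.55% of peaks and 3.90% of flanks and AGATAA in 10.1% and 8.91%. GGAATG of TEAD factors was in 20.6% (18.4 to 23.1) against 14.4% of flanks, and the GLI site GACCACCCA in 12 peaks (1.06%) against 0.221% of flanks. In the 50 to 60% GC range the shares were 20.3% and 16.7% for GGAATG and 1.10% and 0.371% for GACCACCCA. The median ratio of observed to expected CpG was 0.229 in intragenic peaks and 0.829 in TSS peaks, and 61 intragenic peaks (5.40%) exceeded 0.6.

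Tandem arrays of half-sites recurred among the intragenic peaks. In 35 peaks (3.10%) there were 5 or more half-sites, against 2.82% of intergenic distal peaks, 1.75% of peaks 1 to 10 kb from a TSS and 0.0820% of TSS peaks. These 35 had median counts of 40 and 35 in the ChIP libraries and 7 in the input, and the other 1094 had 31, 29 and 7. Besides Slit3, Capn2 and Pigk, none of the 35 was above the typical peak. Usp24, a ubiquitin protease, had 14 half-sites with 42 and 37 reads over 11, and Sh3bgr had 13 with 44 and 54 reads over 7. A pair of peaks in intron 1 of Sh3gl3, an endophilin, had 12 and 8 half-sites and the highest input counts of any intragenic distal peak, 20 and 19, beside 80 and 81 and then 78 and 67 ChIP reads. Input at the 35 peaks thus ran from 1 at Slit3 to 20 at Sh3gl3, and how reads place on repeated units was not tested.

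The intragenic distal peaks fell in 901 host genes when each peak was given 1 host, 735 of them with 1 peak and 166 with 2 or more. Nfia, a nuclear factor I transcription factor, held 7 peaks, spread over introns 1 and 2 of a transcript of 536934 bp. The strongest of them had 36 and 42 ChIP reads over 9, and none was above the typical peak. Chd9, a chromatin remodeller, held 6, the strongest with 56 and 61 reads over 12. Pakap, Epb41l2, Dnm3 and Fry held 5 each. Hosting followed gene length: 1.33% of genes with a transcript of 10 to 30 kb, 6.62% of those of 30 to 100 kb, 19.3% of those of 100 to 300 kb and 23.6% of longer ones hosted a peak.

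Gene lists for the interstitium and its signalling pathways were read against that background, in which 939 of 14930 genes with a transcript over 10 kb hosted a peak (6.29%) and 492 of 2427 over 100 kb did so (20.3%). Contractile and actin cytoskeleton genes hosted peaks in 11 of 31 (35.5%, Wilson 95% interval 21.1 to 53.1), interstitial transcription factors in 9 of 26 (34.6%, 19.4 to 53.8) and extracellular matrix genes in 15 of 44 (34.1%, 21.9 to 48.9). Among their genes over 100 kb the counts were 8 of 16, 8 of 17 and 9 of 21. Together the 15 lists had 61 hosts among 311 genes over 10 kb, with 89 peaks, of which 79 were above input and 2 above the typical peak, among them the peak in Maml3, beside 77.9% and 1.15% of all intragenic distal peaks. The count above input again takes the libraries as equally deep. The lists were written with earlier results of these data known and received no test.

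Among transcription factors of the interstitium, Pknox2 is described above. Gli2, an effector of hedgehog signalling, held 3 peaks, the strongest with 66 and 46 reads over 11, and no other of the 16 hedgehog genes over 10 kb hosted one. Foxp1 had 43 and 44 reads over 6. The strongest peaks of these 3 hosts passed the test against input at equal depth but not that against the typical peak. Over the whole list 19 of 23 peaks passed the test against input, beside 77.9% of all intragenic distal peaks and 80.7% of all peaks, so the count is near the background.

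Matrix and contractile genes gave similar counts. Loxl1, which crosslinks elastin, had 82 and 78 reads over 5 (log2 ratio 1.68 ± 0.56 SE, adjusted p = 0.107, edgeR). Sparc, a matrix glycoprotein, had 81 and 68 reads over 14, and Hspg2, which encodes perlecan, had 64 and 53 over 15. Actn4 is given above, Actn1 had 79 and 51 reads over 11, and the focal adhesion genes Tns1 and Tns3 had 49 and 45 over 7 and 49 and 38 over 8. The Tns1 peak lay 381 bp from a predicted start. Over the 20 matrix peaks the median of the mean ChIP count was 36.8 and over the 15 contractile peaks 36.0, against 30.5 over all intragenic distal peaks.

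Of the TGF-β, activin and BMP genes 7 of 30 hosted a peak. The ligand Bmp7 had 92 and 82 reads over 7 (log2 ratio 1.31 ± 0.50 SE, adjusted p = 0.212, edgeR). The receptors Tgfbr2 and Tgfbr3 had 44 and 30 reads over 8 and 43 and 42 over 6, and Smurf1, a ubiquitin ligase of the pathway, had 52 and 72 over 15. In the Wnt list 5 of 31 genes hosted a peak: the ligand Wnt5a in a coding exon with 52 and 38 reads over 15, the receptor Ror2 with 63 and 46 over 11, the nuclear factor Tcf7l1 with 48 and 49 over 7, the corepressor Tle3 with 52 and 35 over 12, and Znrf3. Notch genes hosted peaks in 1 of 18, namely Maml3 with 4 peaks. VEGF and PDGF genes did so in 2 of 17, Nrp2 and Flt1.

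Nuclear receptor genes hosted peaks in 3 of 34, with 42 and 46 reads over 6 at Rarb, 29 and 28 over 6 at Esr1 and 19 and 16 over 5 at Esrrg. Corepressors and coactivators did so in 3 of 24. They included Bcl11b, with 61 and 39 reads over 10 at 976 bp from a predicted start, and the coactivator Ncoa3, with 41 and 35 over 8. Fetal Leydig and steroidogenic genes hosted peaks in 3 of 21, namely Soat1, a cholesterol esterification enzyme with 32 and 29 reads over 8 and 1 DR1 site, Gata6 with 18 and 18 over 4, and Esrrg. Soft-masked repeat sequence made up 54.3% of the Soat1 peak and 88.7% of the Gata6 peak. Only 37 intragenic distal peaks (3.28%) were masked over at least 50% of their length. Each list of markers of another testis cell type had 1 host, and these lists are short. Dmrt1 was the host among 5 Sertoli genes with 29 and 22 reads over 12, Kit among 9 germ cell genes with 29 and 29 over 7, Flt1 among 12 endothelial genes with 20 and 10 over 9, and Mrc1 among 9 immune genes with 19 and 14 over 5. At equal depth the excess over input at the Dmrt1 and Flt1 peaks did not pass the test (adjusted p = 0.0766 and 0.353, edgeR).

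**Figure D5:**
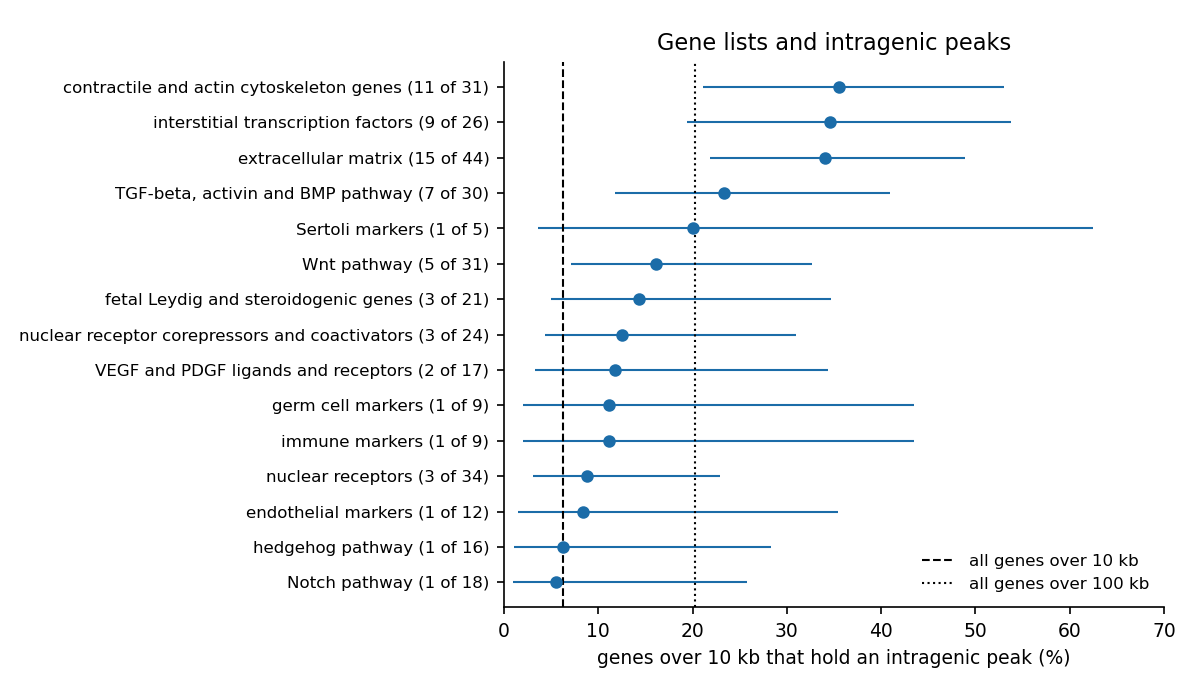
Share of genes over 10 kb in each of 15 lists that hold at least 1 intragenic distal peak, with Wilson 95% intervals and the count of hosts beside each name. The dashed line marks all genes over 10 kb (6.29%) and the dotted line all genes over 100 kb (20.3%).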

How the data were processed

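Counts were analysed for 3 libraries. The authors trimmed single-end reads with Trim Galore 0.6.7, aligned them to mm10 with Bowtie2 in local mode, kept alignments with a mapping quality of at least 5, removed duplicates with Picard 1.110, merged the ChIP replicates, called peaks with HOMER 4.11.1, resized them to 300 bp and removed blacklisted regions. The deposited values are whole-number read counts per peak without normalization. How reads were assigned to a peak and the sequencing depth of each library are not given in the sources used here.

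Hosts, features and TSS distances came from 45756 curated RefSeq transcripts of 26180 genes on mm10, and sequences from the same assembly. Groups came from the labels. Models were fitted to all 10069 peaks in R 4.3.3 with edgeR 4.0.16 (quasi-likelihood) and DESeq2 1.42.0 as an alternative, with an adjusted p threshold of 0.05. The single input was assumed to vary like the ChIP libraries. Ratios used 0.5 added to each count. A set of 27 motifs and 15 gene lists (372 genes) were read on exact letters and symbols, and 5 peaks on unplaced contigs had no position. Positions and motifs were processed with Python 3.11.15.

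Named peaks were the 10 strongest by mean ChIP count, those called above the typical peak, the 5 genes with most peaks, up to 4 hosts per list, peaks that differed between replicates, the 3 highest inputs, the 5 strongest with DR1 and those at the limits. A few peaks that this rule names are not reported here. The members and lists were chosen with earlier results of these data known.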

Additional observations from a re-analysis of the deposited data

How the results depend on the processing

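Among intragenic distal peaks, the 13 above the typical peak became 3 with DESeq2 size factors in edgeR, 5 without TMM factors, 1 with DESeq2 and 8 of 265 tested with an input count of at least 10, and stayed 13 in a robust fit. All 3, 5 and 1 were among the 13, as were 4 of the 8. The number above input, 879, became 0 with ChIP taken as 2 times deeper, 554 with DESeq2 and 234 of 265 with an input count of at least 10, and rose to 1103 with ChIP taken as 2 times shallower, 1072 with the ChIP replicates scaled to each other and 1069 in a robust fit. The median ratio of ChIP to input, 4.28, was 3.004 with 5 added to each count, 3.75 with an input count of at least 10, and 4.08 to 4.48 when either ChIP replicate was left out. That leaves 1 library against 1, with no residual degrees of freedom and so no test. In the central 100 bp the shares of peaks were 35.6% for the NR2F half-site, 9.12% for its extended forms, 2.83% for DR1 and 23.6% for the E-box, as the window is shorter. Among peaks of 50 to 60% GC, an alternative chosen after seeing the data, DR1 was in 3.45% and the E-box in 50.6%. GENCODE M21 in place of curated RefSeq, also added later, gave 969 peaks, of which 657 were among the 1129, and all RefSeq transcripts gave 1132 with 893 shared. No paired analysis was possible because the input carries no replicate number and the groups share fewer than 2 numbers. Depth limits the precision of single peaks, as the median input is 7 reads.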

Other observations

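The peak at chr8:25819062-25819361, in intron 13 of 15 of Ash2l, had its nearest TSS at Star, 10588 bp away, which encodes the protein that brings cholesterol into mitochondria. It held 5 half-sites and 1 DR1 site, with 24 and 19 ChIP reads over 9 input reads, and its excess over input did not pass the test at equal depth (adjusted p = 0.0560, edgeR). The peak was named after its values were seen. The Osbp2 peak, with 8 half-sites in 300 bp, had the highest internal identity among the array peaks, 93.5% at a shift of 38 bp, with 50 and 45 ChIP reads over 7.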
